A study of Drosophila melanogaster with 21 samples.

Results

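The change in the control fly brain between day 3 (3d) and day 20 (20d) of adult life was measured in the second of a pair of RNA-seq experiments, called set 2. The comparison used the 3 libraries of 3d control brains and the 3 libraries of 20d control brains of set 2, which are 6 of the 21 libraries of the series, and it covered every gene that passed a filter on low counts. All 6 libraries came from male Drosophila melanogaster of the strain labelled 5905, the control of the miR-34 mutants in the study, kept on standard molasses food. Each library was made from the polyA+ RNA of 20 pooled brains, so a value is an average over cell types and over animals. The remaining 3 libraries of set 2 were 50d control brains of the same strain. Set 1 was run independently and held 3d and 20d brains of the same control strain and of miR-34 mutants, in 3 replicates each. The 6 control libraries of set 1 share no library with set 2, and they serve here as a second measurement of the same pair of ages.

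A newly eclosed fly is not yet a mature adult: in the first days its cuticle hardens, larval stores are used up, and circuits continue to be refined. Neurons depend on mitochondrial respiration, in which the tricarboxylic acid cycle feeds electrons to the respiratory complexes and the ATP synthase uses the resulting proton gradient. Transmitter is loaded into synaptic vesicles with the help of the vacuolar H+ ATPase and released through SNARE proteins in response to calcium. Insects answer microbes through the Toll and Imd pathways, which switch on secreted antimicrobial peptides, and a rise of these peptides in older flies is well known from work on fly ageing.

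Total counts were between 31775928 and 43713430 per library of 3d and 20d brains in set 2, and between 19102856 and 22197164 in the controls of set 1. Neuronal and glial markers were present in every library, and none of the markers found in the table for neurons, glia or photoreceptors was at 0. The libraries also held much RNA of photoreceptors, the light-sensing cells of the eye and a tissue beside the brain. The 14 photoreceptor markers summed to between 64370 and 67360 CPM at 3d and to between 64520 and 81170 CPM at 20d (CPM are counts scaled to the size of the library with TMM factors, the unit of all levels given here). Fat body markers summed to between 1008 and 1402 CPM at 3d and to between 383 and 477.5 CPM at 20d, a sum in which Lsp2 and Lsp1beta fell, whereas of the 8 markers tested 2 were higher and 2 lower. Markers of testis and accessory gland summed to between 1.33 and 13.2 CPM at 3d, the highest value being that of 3d replicate 2, and to between 2.85 and 3.48 CPM at 20d. In that library the testis gene loopin-1 had 218 counts, against 2 and 0 counts in the other 3d libraries, and the testis gene ocn had 97 counts against 0 and 0 (both chosen after their counts were seen). The same library had counts on 13514 genes, against 12642 and 12451 genes in 3d replicates 1 and 3. Every replicate pair differed by more than sampling noise. Transcripts of the mitochondrial genome took from 10.2% to 11.5% of the counts at 3d and from 5.97% to 8.24% at 20d.

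Of 10525 genes tested, 4127 (39.2%) differed between 20d and 3d at an adjusted p under 0.05. At 20d 2029 genes (19.3%) were higher and 2098 (19.9%) were lower, and these shares are the background for the counts of gene groups that follow. Most of the changes were small. The median size among the called genes was 0.44 on the log2 scale, and 458 genes rose and 229 fell by at least 2-fold. At least 4-fold changes were found for 137 genes that rose and 56 that fell. The 3d and 20d libraries did not overlap for 5416 genes (51.5%). Most genes named below were picked among calls with large changes, so a lack of overlap in them adds no support. With total counts in place of TMM factors, 68.7% of the called genes were higher in place of 49.2%, and the median of all genes moved by 0.11 on the log2 scale. Without 3d replicate 2, the library with testis transcripts, 3598 genes were called.

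**Figure D1:**
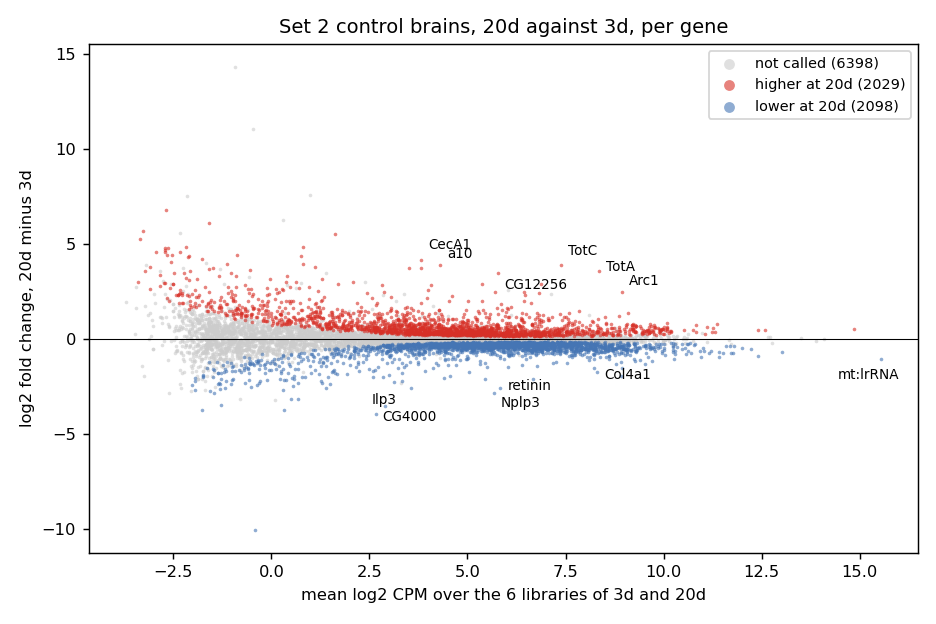
Each point is a gene tested in set 2, with its mean log2 CPM over the 6 libraries of 3d and 20d on the x axis and the log2 fold change 20d minus 3d on the y axis. The 2029 genes called higher at 20d are red, the 2098 called lower are blue, genes not called are grey, and the 12 labelled genes are described in the text.

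The independent controls of set 1 gave fewer calls, 2451 of 9961 genes tested (24.6%), of which 1124 (11.3%) were higher and 1327 (13.3%) lower at 20d. Among 9896 genes tested in both sets, 1493 were called in the same direction, 545 higher and 948 lower. These were 37.1% of the set 2 calls and 61.0% of the set 1 calls. Of the genes that fell in set 2, 45.8% also fell in set 1, and of the genes that rose in set 2, 27.9% also rose in set 1. Only 18 genes were called in opposite directions, 5 of them higher in set 2 and 13 lower in set 2. The sign in set 1 was that of set 2 for 84.9% of the set 2 calls and for 70.1% of all genes tested in both.

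The difference between the sets was itself tested as a set by age interaction over the 12 control libraries. It was called for 455 of 10221 genes (4.45%), 144 (1.41%) with a more positive change in set 2 and 311 (3.04%) with a more negative one, and the smallest adjusted p of any gene was 0.0272. This count rested on the choice of libraries. When each of the 12 libraries was left out in turn, the edgeR test called 0 genes without any one of 6 of them (set 1 3d replicate 1, set 1 20d replicate 1, set 1 20d replicate 3, set 2 3d replicate 2, set 2 3d replicate 3 and set 2 20d replicate 1), although from 1937 to 2225 genes then had an unadjusted p under 0.05. It called 2 genes without set 1 3d replicate 2, 4 without set 2 20d replicate 2, 90 without set 1 3d replicate 3 and 1214 without set 1 20d replicate 2. DESeq2 called 1090 genes with all 12 libraries. The set stands for the cohort of flies, the sequencing run and its depth together, which cannot be told apart.

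The sets also differed in how the age change varied with gene length. In set 2 the median log2 fold change went from 0.069 among genes with a summed exon length of 55 to 973 bases to -0.054 among genes of at least 4499 bases. In set 1 it went the other way, from -0.13 to 0.14 over the same bins. Ribosomal proteins are encoded by short genes and ion channels by long ones, so comparisons of such groups between the sets are also given below with a length offset, which removes the length trend of each library. This alternative was added after the trend was seen. Under it the interaction was called for 271 genes.

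**Figure D2:**
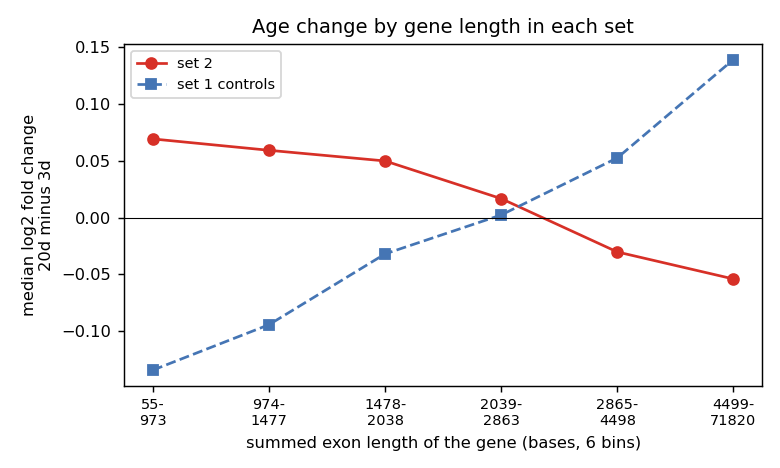
Median log2 fold change, 20d minus 3d, of the genes in 6 bins of summed exon length, for set 2 (circles) and for the controls of set 1 (squares). The medians fell with length in set 2, from 0.069 to -0.054, and rose with length in set 1, from -0.13 to 0.14.

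Nuclear genes of mitochondrial respiration fell together at 20d. In complex I, which takes electrons from NADH, 27 of 28 tested genes were lower and none was higher, with a median log2 fold change of -0.56 against 0.0098 over all genes tested. In complexes II to V 36 of 42 were lower and none higher, with a median of -0.57. The members that did not pass the test were ND-51L2 in complex I and ATPsynepsilonL, COX4L, COX7AL, COX7AL2, COX7CL and UQCR-11L in the other complexes, all of them genes whose names mark them as paralogs of a subunit. The level of ND-19, a complex I subunit (2R, 24664398 to 24665439), was 83.9, 87.9 and 93.3 CPM at 3d and 51.9, 47.6 and 49.2 CPM at 20d (log2 fold change -0.83 ± 0.07, adjusted p = 3.64e-06). For Cyt-c-p, the cytochrome c that carries electrons from complex III to complex IV (2L, 16719932 to 16722644), it was 498, 518 and 547 CPM at 3d and 283, 264 and 253 CPM at 20d (log2 fold change -0.97 ± 0.07, adjusted p = 1.28e-06). For both genes the highest 20d library was below the lowest 3d library, as in 25.8% of all genes tested. The alpha subunit of the ATP synthase, blw, had 1499, 1687 and 1780.2 CPM at 3d and 1008, 894 and 933 CPM at 20d (log2 fold change -0.81 ± 0.08, adjusted p = 1.96e-05). UQCR-11 of complex III had a log2 fold change of -0.81, and ND-B18 and ND-AGGG of complex I had -0.78 and -0.78.

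The fall reached other mitochondrial functions. Of 15 genes of the tricarboxylic acid cycle and its entry reaction, 11 were lower and 2 higher. Citrate synthase, encoded by kdn (X, 6350629 to 6361323), had 764, 915 and 959 CPM at 3d and 436, 424 and 417 CPM at 20d (log2 fold change -1.05 ± 0.08, adjusted p = 3.56e-06), so that the mean level at 20d was 0.484 of that at 3d. The pyruvate dehydrogenase component muc had a log2 fold change of -0.83 and the isocitrate dehydrogenase subunit Idh3a of -0.82. The members that rose were Idh, which makes NADPH, at 0.57 and the cytosolic Mdh1 at 0.26 (both named after their values were seen). Among 72 mitochondrial ribosomal proteins 48 were lower and none higher, with a median of -0.28 and the largest fall for mRpS9, from 79.8, 75.7 and 79.2 CPM at 3d to 44.3, 38.4 and 40.8 CPM at 20d. Of 15 transcripts of the mitochondrial genome 8 were lower and none higher, and the ribosomal RNA mt:lrRNA went from 73284, 65332 and 70983 CPM at 3d to 25069, 40375 and 33843 CPM at 20d (log2 fold change -1.08 ± 0.16, adjusted p = 0.000206). All 3 of its 20d libraries were below the 3d libraries, with 20d replicate 2 the highest of them.

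These decreases were found in set 1 as well. There 27 of 27 complex I genes, 35 of 40 genes of complexes II to V, 54 of 72 mitochondrial ribosomal proteins and 11 of 15 tricarboxylic acid cycle genes were lower, with medians of -0.56, -0.57, -0.37 and -0.42. For the respiratory genes and mitochondrial ribosomal proteins the interaction was called for 0 genes by edgeR, and for 1 complex I gene, 2 genes of complexes II to V and 1 mitochondrial ribosomal protein by DESeq2. Before adjustment, 2, 3 and 8 members of these lists had an edgeR p under 0.05. In the cycle it was called for muc. With the length offset the set 1 count of mitochondrial ribosomal proteins was 22 in place of 54, and in set 2 it was 26 with total counts and 30 without 3d replicate 3 in place of 48. In glycolysis 8 of 15 genes were lower and 2 higher. Ldh, which converts pyruvate to lactate (3L, 6259105 to 6262694), rose from 5.89, 6.63 and 7.66 CPM at 3d to 15.4, 19.6 and 18.3 CPM at 20d (log2 fold change 1.41 ± 0.17, adjusted p = 0.000165), and its change in set 1 was 1.41. Glycerol-3-phosphate dehydrogenase, Gpdh1, fell from 565, 684 and 628 CPM at 3d to 359.6, 348 and 353 CPM at 20d (log2 fold change -0.82 ± 0.09, adjusted p = 2.13e-05).

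**Figure D3:**
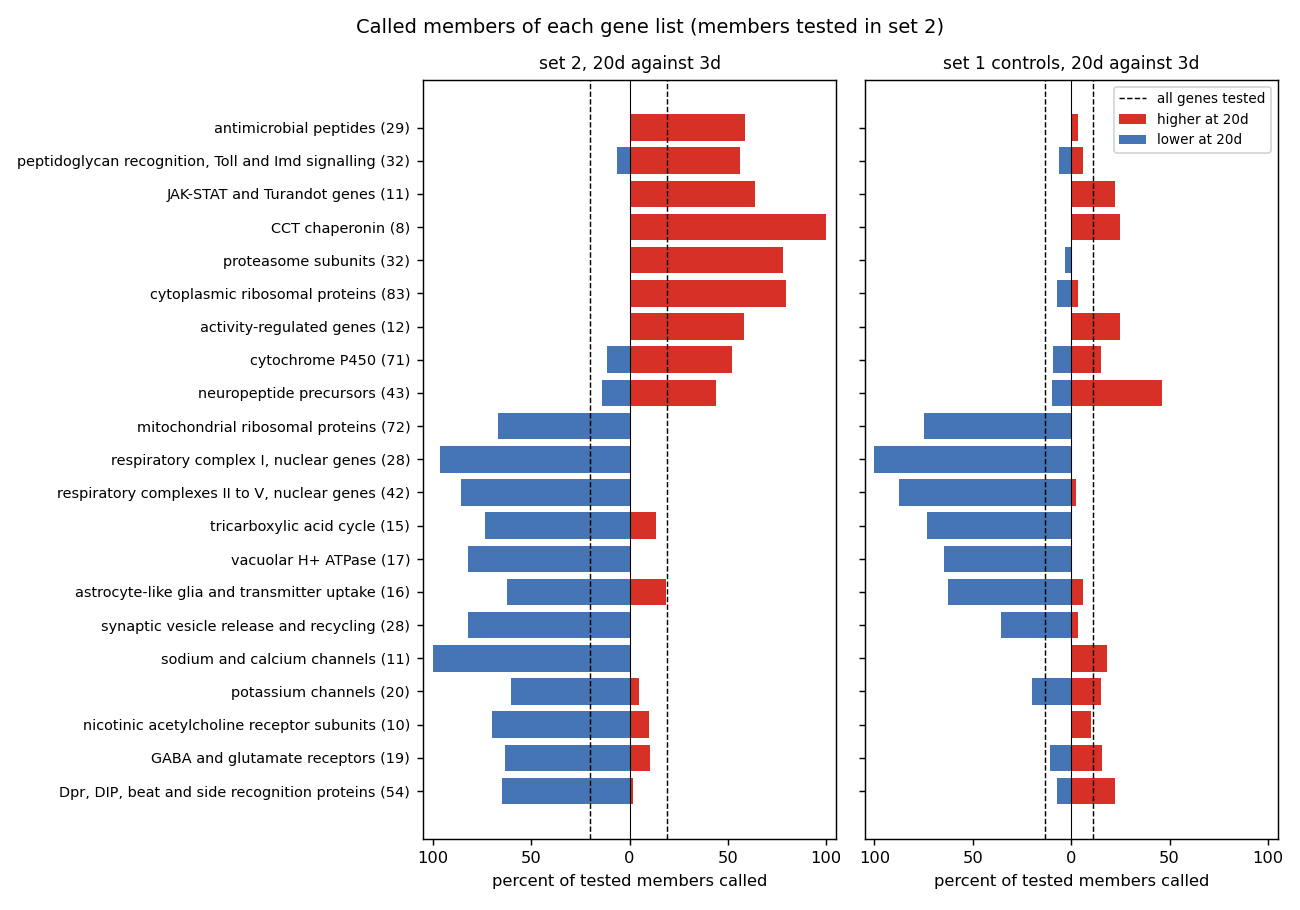
Share of the tested members of 21 gene lists that were called higher (red, right) or lower (blue, left) at 20d, in set 2 and in the controls of set 1, with the number of members tested in set 2 in brackets. Dashed lines mark the shares over all genes tested, 19.3% higher and 19.9% lower in set 2 and 11.3% and 13.3% in set 1.

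The vacuolar H+ ATPase, which acidifies lysosomes and energises the loading of synaptic vesicles, had 14 of 17 tested subunits lower and none higher, with a median of -0.41. Its catalytic A subunit Vha68-1 (2L, 13000770 to 13004107) had 706, 686 and 764 CPM at 3d and 383, 427 and 413 CPM at 20d (log2 fold change -0.82 ± 0.07, adjusted p = 5.53e-06). The B subunit Vha55 had 752, 775 and 811 CPM at 3d and 501, 499.9 and 515 CPM at 20d (log2 fold change -0.62 ± 0.06, adjusted p = 1.47e-05). The ages did not overlap for either gene, as for 51.5% of all genes tested. In set 1, 11 of 17 subunits were also lower, and the changes of Vha68-1 and Vha55 were -0.42 and -0.35.

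Genes of synaptic transmission and neuronal excitability were lower at 20d in set 2. Of 28 genes of synaptic vesicle release and recycling, 23 were lower and none higher, with a median of -0.44. Complexin, encoded by cpx and needed to clamp and trigger vesicle fusion (3R, 4280221 to 4304604), had 4377, 4444 and 4738 CPM at 3d and 2533, 2877 and 2636 CPM at 20d (log2 fold change -0.75 ± 0.08, adjusted p = 3.36e-05). The calcium sensor of release, Syt1 (2L, 2772327 to 2799979), had 1913, 1951 and 2121 CPM at 3d and 1137, 1332 and 1302 CPM at 20d (log2 fold change -0.67 ± 0.09, adjusted p = 0.000108). The vesicle protein Syngr had a log2 fold change of -0.78, and comt, the NSF that takes SNARE complexes apart, had -0.75. In each of these genes the lowest 20d library was replicate 1. The 20d and 3d libraries did not overlap, as for 51.5% of all genes tested.

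All 11 voltage-gated sodium and calcium channel genes were lower, with a median of -0.39. The neuronal sodium channel para (X, 16455027 to 16533096) had 1357, 1543 and 1598 CPM at 3d and 869, 1048 and 1023 CPM at 20d (log2 fold change -0.61 ± 0.10, adjusted p = 0.000453), and the related channel NaCP60E had 998, 1200.2 and 1134 CPM at 3d and 669.8, 712 and 753 CPM at 20d (log2 fold change -0.64 ± 0.10, adjusted p = 0.00025). Of 20 potassium channel genes 12 were lower and 1 higher. The A-type channel Sh (X, 17924307 to 18063247) had 1407, 1561 and 1599 CPM at 3d and 884, 1015 and 950.3 CPM at 20d (log2 fold change -0.68 ± 0.09, adjusted p = 7.57e-05), its beta subunit Hk a log2 fold change of -0.64, and Shal one of -0.63. These channels were named for being among the largest changes of their lists, so their like size, between -0.61 and -0.68, follows from that choice. Over all tested members, sodium and calcium channels ranged from -0.64 to -0.19. Potassium channels ranged from -0.68 to 0.78, with a median of -0.27.

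Of 10 subunits of nicotinic acetylcholine receptors, which carry most fast excitation in the fly brain, 7 were lower and 1 higher. The subunit nAChRbeta1 (3L, 4429349 to 4435993) had 679, 673 and 701 CPM at 3d and 381, 429 and 446 CPM at 20d (log2 fold change -0.71 ± 0.08, adjusted p = 4.33e-05), and nAChRalpha7 had a log2 fold change of -0.59. The member that rose was nAChRbeta3, with 22.2, 26.2 and 23.7 CPM at 3d and 45.2, 35.4 and 33.4 CPM at 20d (log2 fold change 0.66 ± 0.14, adjusted p = 0.00538). Among 19 receptors for GABA and glutamate 12 were lower and 2 higher. The glutamate-gated chloride channel GluClalpha had 569.8, 578 and 605 CPM at 3d and 367, 401 and 419 CPM at 20d (log2 fold change -0.56 ± 0.08, adjusted p = 0.000253), Grd a log2 fold change of -1.09, and GluRIIA, a glutamate receptor subunit known from the neuromuscular junction, one of 0.93. Of 54 cell-surface recognition proteins of the Dpr, DIP, Beat and Side families, which match neurons with their partners, 35 were lower and 1 higher, with changes of -0.61 for DIP-zeta, -0.59 for beat-Va and -0.56 for dpr18. With total counts in place of TMM factors the counts of lower genes in the last pair of lists were 7 and 19, and without 3d replicate 3 that of the recognition proteins was 23.

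Of the 8 neuronal markers 6 were lower as well (elav, nSyb, Syt1, brp, para and Syx1A), and the summed level of the 8 went from 9479 to 10480 CPM at 3d to 7052 to 8003 CPM at 20d. In bulk RNA, fewer cells of a type and less RNA per cell cannot be told apart, and the part of cell composition in these changes was not tested. The counts of lower genes were smaller in set 1. There 10 of 28 vesicle genes were lower and 1 higher, 2 of 11 sodium and calcium channels were higher and none lower, 4 of 20 potassium channels were lower and 3 higher, and 4 recognition proteins were lower and 12 higher. The interaction was called for 14 vesicle genes, 8 sodium and calcium channels, 8 potassium channels, 3 nicotinic subunits, 6 GABA and glutamate receptors and 11 recognition proteins, each time with a more negative change in set 2. Before adjustment, an edgeR interaction p under 0.05 was found for 24 of 28 vesicle genes and 11 of 11 sodium and calcium channels. It was found for 14 of 20 potassium channels, 9 of 10 nicotinic subunits, 15 of 19 GABA and glutamate receptors and 44 of 54 recognition proteins. Over all genes it was 2432 of 10221. For nAChRbeta1 the change was -0.71 in set 2 and -0.06 in set 1 (difference -0.65, adjusted p = 0.0303). With the length offset the interaction was called for 9 vesicle genes, 1 sodium or calcium channel, 4 potassium channels and 4 recognition proteins, whereas the set 2 counts stayed at 25, 11, 12 and 35 lower genes. Without any one of the 6 libraries named above the interaction was called for none of these genes.

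**Figure D4:**
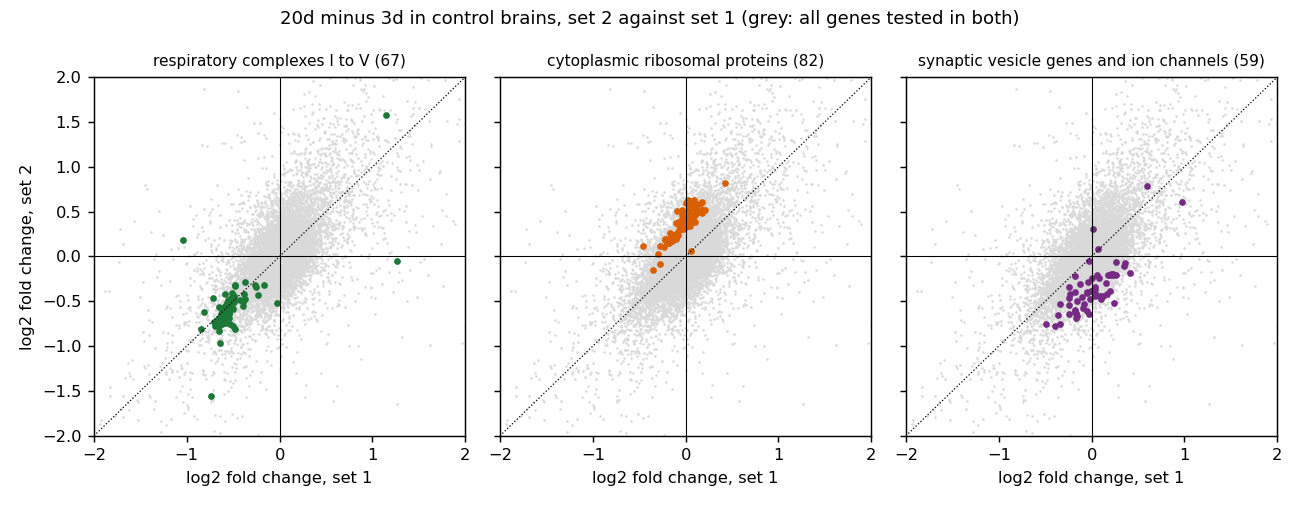
Log2 fold change, 20d minus 3d, in set 2 (y axis) against set 1 (x axis) for genes tested in both sets (grey), with 3 groups in colour: 67 genes of respiratory complexes I to V, 82 cytoplasmic ribosomal proteins, and 59 genes of vesicle release and ion channels. The dotted line marks equal change, axes stop at 2 in each direction, and most respiratory genes lie near the line whereas most ribosomal proteins lie above it and most vesicle and channel genes below it.

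Cytoplasmic ribosomal proteins, subunits of the CCT chaperonin and subunits of the proteasome were higher at 20d, whereas heat shock proteins and chaperones were split, with 4 of 23 higher and 4 lower. Of 83 cytoplasmic ribosomal proteins 66 were higher and none lower, with a median of 0.40. Their summed level was 55550, 52930 and 49760 CPM at 3d and 75280, 65040 and 66380 CPM at 20d. The largest rise among the abundant members was that of sta, the small-subunit protein SA (X, 1481797 to 1483413), with 921, 819 and 734 CPM at 3d and 1604, 1346 and 1400.1 CPM at 20d (log2 fold change 0.81 ± 0.10, adjusted p = 9.22e-05). RpL31 had 926, 897 and 795 CPM at 3d and 1533, 1211 and 1318 CPM at 20d (log2 fold change 0.63 ± 0.11, adjusted p = 0.000829), and RpL27A and RpL37A had log2 fold changes of 0.63 and 0.62. In each of them the highest 20d library was replicate 1. The 8 subunits of the CCT chaperonin, which folds actin and tubulin, were all higher, led by CCT5 (2R, 12174802 to 12177516) with 29.1, 26 and 23.0 CPM at 3d and 57.5, 54.4 and 48.5 CPM at 20d (log2 fold change 1.04 ± 0.10, adjusted p = 1.47e-05). CCT1, CCT7 and CCT8 had log2 fold changes of 0.63, 0.61 and 0.52.

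Of 32 proteasome subunits 25 were higher and none lower, with a median of 0.26. Prosalpha3 of the core particle (2R, 20994900 to 20996118) had 41.3, 39.3 and 40.7 CPM at 3d and 65.3, 57.1 and 55.1 CPM at 20d (log2 fold change 0.55 ± 0.08, adjusted p = 0.000211). The core subunit Prosbeta1 and the regulatory subunits Rpn6 and Rpn13 had log2 fold changes of 0.47, 0.42 and 0.42, so the rise was small. Of 19 genes of the unfolded protein and integrated stress responses 9 were higher and 1 lower. The folding enzymes of the endoplasmic reticulum Pdi and ERp60 had 0.43 and 0.43 and the chaperone Gp93 had 0.42, whereas PPP1R15, a phosphatase cofactor for eIF2alpha, had -0.39. Translation factors, by comparison, were split, with 8 of 48 higher and 11 lower, and the aminoacyl-tRNA synthetases had 6 of 33 higher and 7 lower. Of 26 autophagy genes 3 were higher and 5 lower.

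In set 1, 3 of 82 ribosomal proteins were higher and 6 lower, 2 CCT subunits were higher, and 1 of 32 proteasome subunits was lower. The interaction was called for 13 ribosomal proteins and 4 proteasome subunits, all with a more positive change in set 2, as for RpL31 (set 2 0.63, set 1 0.03, adjusted p = 0.0381). Before adjustment, 78 of 83 ribosomal proteins, 24 of 32 proteasome subunits and 3 of 8 CCT subunits had an edgeR interaction p under 0.05. Over all genes it was 2432 of 10221. The length offset changed the set 1 result: 35 ribosomal proteins were then higher and 4 lower in set 1, 69 were higher and 1 lower in set 2, and the interaction was called for 4. The number of ribosomal protein genes called different between the sets thus depended on the treatment of gene length.

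Immune genes rose. Of 29 antimicrobial peptide genes, 17 were higher and none lower, and 28 had a log2 fold change above 0, with a median of 1.36. The cecropin CecA1 (3R, 30210874 to 30211273) had 4.93, 3.16 and 2.57 CPM at 3d and 51.3, 32.6 and 109 CPM at 20d (log2 fold change 4.16 ± 0.62, adjusted p = 0.00267), and its neighbour CecA2 had 3.93, 1.88 and 4.03 CPM at 3d and 48.2, 23.3 and 61.8 CPM at 20d (log2 fold change 3.76 ± 0.48, adjusted p = 0.00132). The attacin AttB (2R, 14749223 to 14750165) had 4.66, 3.22 and 4.27 CPM at 3d and 49.5, 29.4 and 82.7 CPM at 20d (log2 fold change 3.73 ± 0.46, adjusted p = 0.0011). Like 51.5% of all genes tested, these genes had no overlap between the ages, and they were picked among such genes. In each of them 20d replicate 2 was the lowest 20d library. AttC had 54.1, 20.9 and 76.5 CPM at 3d and 513, 132 and 466 CPM at 20d (log2 fold change 2.88 ± 0.69, adjusted p = 0.0183). It was no longer called without 3d replicate 1, 20d replicate 1 or 20d replicate 3, or when only the 6 libraries compared were fitted, with adjusted p up to 0.0562. The 12 peptides that did not pass included Def and AttD, with log2 fold changes of 7.52 and 3.66, and Drs with 0.05 (named after their values were seen). Summed over the tested peptides, the level was 1213, 1038 and 987 CPM at 3d, 4019, 1869 and 4003 CPM at 20d, and 6135, 7355 and 5501 CPM at 50d. Cecropins and attacins are families of near-identical genes, so the division of reads between members is uncertain.

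Of 32 genes of peptidoglycan recognition and Toll and Imd signalling, 18 were higher and 2 lower. The amidase PGRP-SB1 (3L, 16727299 to 16727989) had 37.0, 37.5 and 46.6 CPM at 3d and 242, 172 and 182 CPM at 20d (log2 fold change 2.30 ± 0.16, adjusted p = 9.74e-06). The recognition proteins PGRP-SD and PGRP-SA had log2 fold changes of 2.00 and 1.19. PGRP-LB, an amidase that dampens Imd signalling, had 1.29 (adjusted p = 0.0287), and it was no longer called without 3d replicate 1, 3d replicate 2, 20d replicate 1 or 20d replicate 3, nor with a replicate block or with no filter on low counts, with adjusted p up to 0.092. In set 1 a single antimicrobial peptide and 2 genes of the recognition list were higher, with a median of 0.58 over the peptides. The changes of CecA1 and PGRP-SB1 there were 1.42 (adjusted p = 0.555) and 0.92 (adjusted p = 0.158), and the interaction was not called for either gene (adjusted p = 0.26 and 0.181).

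The Turandot genes encode secreted proteins made under stress, in part through JAK-STAT signalling. Of 11 genes of this list 7 were higher and none lower. TotA (3R, 20871036 to 20871700) had 103, 111 and 73.8 CPM at 3d and 1014, 1197 and 1224 CPM at 20d (log2 fold change 3.57 ± 0.44, adjusted p = 0.00102). Its neighbour TotC had 49.4, 52.0 and 31.9 CPM at 3d and 542, 664 and 741 CPM at 20d (log2 fold change 3.87 ± 0.53, adjusted p = 0.00186). The levels at 50d were 179, 389.5 and 138 CPM for TotA and 87.3, 206 and 58.7 CPM for TotC, between those of 3d and 20d, unlike those of the antimicrobial peptides. TotX had a log2 fold change of 1.38. TotM had 2.82 (adjusted p = 0.0289), which was lost without any one of 3d replicates 1, 2 and 3 and 20d replicates 1 and 3, with adjusted p up to 0.0917. In set 1 TotA changed by 0.50 (adjusted p = 0.594) and TotC by 0.47 (adjusted p = 0.678), and the difference between the sets was called for TotA (3.07, adjusted p = 0.0381), TotC (3.39, adjusted p = 0.042) and TotX (1.61, adjusted p = 0.0376).

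**Figure D5:**
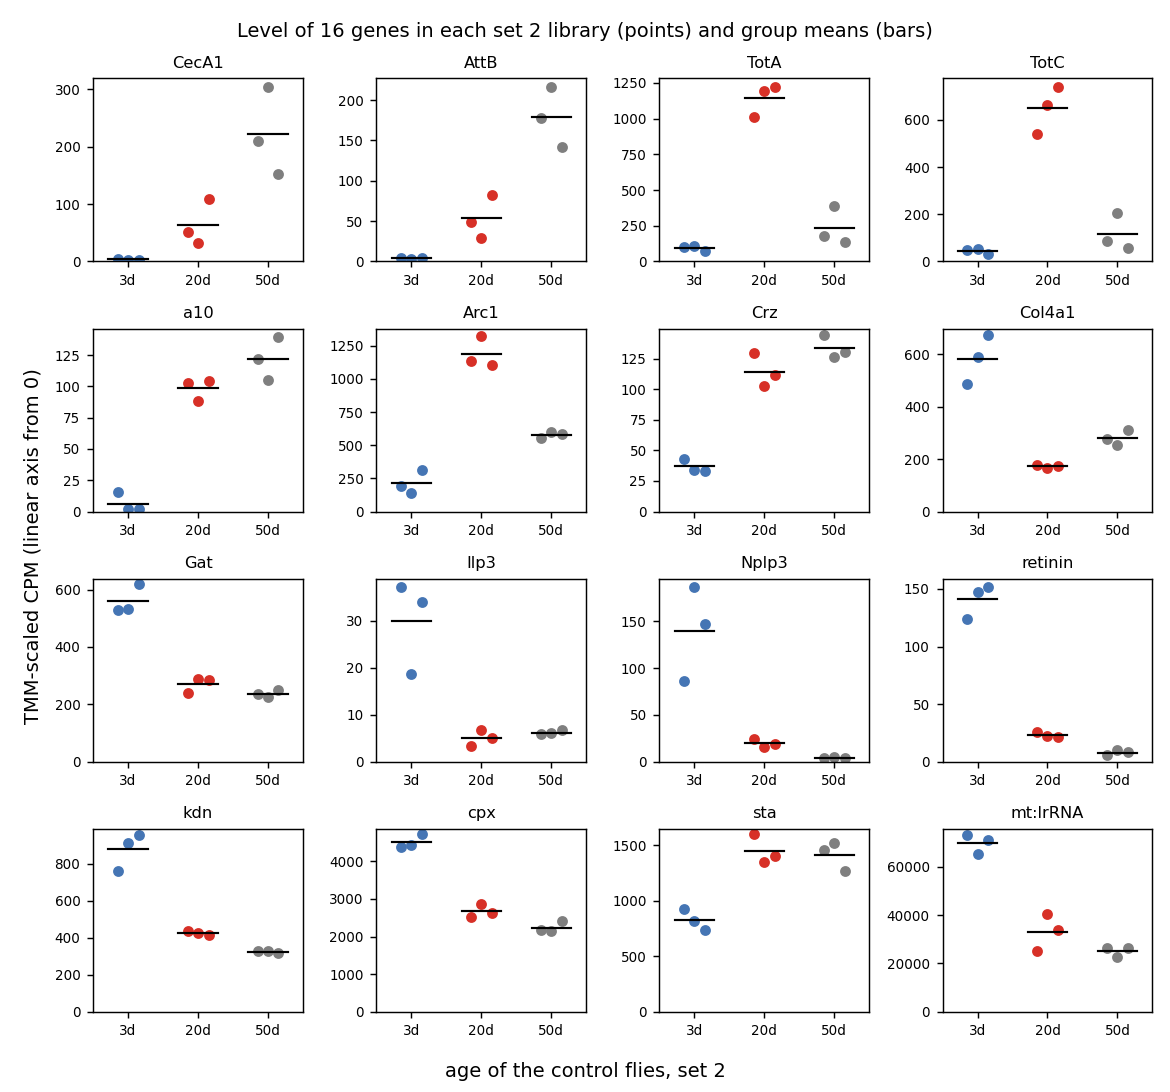
TMM-scaled CPM of 16 genes in each set 2 library at 3d (blue), 20d (red) and 50d (grey), with black bars for the means of 3 libraries and linear axes that start at 0. The 3d and 20d points do not overlap for any of the 16 genes, and the 50d points of TotA, TotC and Arc1 lie below those of 20d. Some of the 16, CecA1, AttB, Ilp3 and Nplp3 among them, were picked among genes without such overlap.

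Neuropeptides moved in both directions. Of 43 precursor genes 19 were higher and 6 lower, and set 1 gave 19 higher and 4 lower of 41. Corazonin, encoded by Crz and made in a few neurosecretory cells (3R, 14314854 to 14315716), had 42.9, 34.1 and 33.5 CPM at 3d and 129, 102 and 111 CPM at 20d (log2 fold change 1.63 ± 0.11, adjusted p = 3.87e-06). The feeding-related peptide gene Hug (3R, 12526188 to 12529076) had 77.1, 66.4 and 60.2 CPM at 3d and 174, 158 and 194 CPM at 20d (log2 fold change 1.37 ± 0.11, adjusted p = 8.05e-06), and Pdf, the transmitter of clock neurons (3R, 26455462 to 26456141), had 113, 88.8 and 87.4 CPM at 3d and 209, 232 and 204.6 CPM at 20d (log2 fold change 1.16 ± 0.11, adjusted p = 1.75e-05). The 3 genes were also called higher in set 1, with changes of 1.01, 0.85 and 0.77. Ilp3, an insulin-like peptide of the insulin-producing cells (3L, 9801298 to 9802120), fell from 37.3, 18.7 and 34.1 CPM at 3d to 3.27, 6.82 and 5.09 CPM at 20d (log2 fold change -2.57 ± 0.33, adjusted p = 0.000829), the 3d replicate 2 being the lowest 3d library. Nplp3, a neuropeptide-like precursor (3L, 16318024 to 16318690), fell from 86.2, 186 and 147 CPM at 3d to 24.6, 15.97 and 18.5 CPM at 20d (log2 fold change -2.83 ± 0.32, adjusted p = 0.000704). Both also fell in set 1, by 1.60 and 1.58 on the log2 scale. The insulin receptor InR rose from 63.0, 57.0 and 65.6 CPM at 3d to 96.9, 109.5 and 101 CPM at 20d (log2 fold change 0.73 ± 0.08, adjusted p = 2.3e-05), whereas the amino acid transporter slif had -0.75, and 9 of 28 genes of the insulin and TOR pathway were higher and 5 lower.

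Of 12 genes regulated by neuronal activity 7 were higher and none lower. Arc1, whose protein forms capsids that carry its own mRNA between cells (2R, 14357927 to 14360297), had 194, 138 and 312 CPM at 3d and 1130.3, 1319.6 and 1105 CPM at 20d (log2 fold change 2.46 ± 0.28, adjusted p = 0.000442). Its relative Arc2 had 2.34, 2.87 and 2.85 CPM at 3d and 7.53, 9.55 and 8.84 CPM at 20d (log2 fold change 1.69 ± 0.12, adjusted p = 2.22e-06). Every 20d library lay above the 3d libraries for both, as for 25.7% of all genes tested. At 50d Arc1 had 554, 597 and 586 CPM. Arc1 also rose in set 1, by 1.85. Gadd45 and CrebA had log2 fold changes of 1.06 and 0.80. In the clock list 4 of 19 genes were higher and 3 lower, vri, a repressor in the clock loop, among the higher ones with 1.02. Of 30 genes of monoamine synthesis, transport and signalling 14 were lower and 2 higher (7 and 8 lower with total counts and without 3d replicate 3). Tyrosine hydroxylase, ple, had 48.5, 45.6 and 50.3 CPM at 3d and 24.7, 34.5 and 35.3 CPM at 20d (log2 fold change -0.61 ± 0.14, adjusted p = 0.00793), and Pu, the GTP cyclohydrolase that makes the cofactor for this enzyme and eye pigment precursors, had -1.37. Phenylalanine hydroxylase, Hn, had 1.15.

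Glial genes for transmitter uptake fell, whereas wrapper rose. Of 16 genes of astrocyte-like glia and uptake 10 were lower and 3 higher, as against 10 lower and 1 higher in set 1. The GABA transporter Gat (4, 629691 to 635350) had 529.8, 531 and 619 CPM at 3d and 239, 288 and 284 CPM at 20d (log2 fold change -1.05 ± 0.09, adjusted p = 5.11e-06), and the glutamate transporter Eaat1 (2L, 9333567 to 9341925) had 719.9, 727 and 795 CPM at 3d and 415, 431 and 418 CPM at 20d (log2 fold change -0.83 ± 0.07, adjusted p = 4.91e-06). The sodium pump subunit nrv2, abundant in glia, had 1409, 1341 and 1478 CPM at 3d and 762.4, 786 and 798 CPM at 20d (log2 fold change -0.85 ± 0.07, adjusted p = 3.56e-06). In contrast wrapper, an immunoglobulin-family protein of glia that enwrap neurons, had 109, 76.0 and 73.3 CPM at 3d and 147, 157 and 148 CPM at 20d (log2 fold change 0.81 ± 0.13, adjusted p = 0.00121). Of the 8 glial markers 4 were lower and 2 higher, the higher ones being wrapper and repo (repo named after its values were seen). The sum of the 8 was between 6103 and 6522 CPM at 3d and between 3980 and 4000 CPM at 20d. Most of this sum came from Gs2 and nrv2, so it mainly follows these genes.

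Of 29 genes of the blood-brain barrier, septate junctions and matrix, 8 were lower and 6 higher, with a median of 0.01. The members with the largest change were the type IV collagens Col4a1 and vkg, the perlecan trol and the laminin LanA, proteins of the basement membrane, the sheet of matrix around the brain, and all 4 fell. Col4a1 (2L, 5029609 to 5037279) had 487, 589 and 672 CPM at 3d and 179, 167 and 174 CPM at 20d (log2 fold change -1.75 ± 0.11, adjusted p = 1.3e-06). The adjacent gene vkg (2L, 5012144 to 5028191) had 376, 407 and 435 CPM at 3d and 171, 187 and 196 CPM at 20d (log2 fold change -1.14 ± 0.08, adjusted p = 1.69e-06), and trol (X, 2470460 to 2545427) had 666, 717 and 724 CPM at 3d and 254, 283 and 303 CPM at 20d (log2 fold change -1.32 ± 0.08, adjusted p = 7.27e-07). LanA had a log2 fold change of -1.06. The ages did not overlap for these genes, as for 51.5% of all genes tested. The genes fell in set 1 too, by 1.03, 0.58, 0.73 and 0.52 on the log2 scale. The decrease was larger in set 2 for Col4a1 (difference -0.72, adjusted p = 0.042), vkg (-0.55, adjusted p = 0.0376) and trol (-0.59, adjusted p = 0.0358). Marker genes of blood cells, a source of such matrix in the fly, summed to between 471.4 and 544.1 CPM at 3d and between 386 and 449 CPM at 20d, with 3 of 8 lower and 1 higher, and their part in the result was not tested.

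Among the larger decreases were those of retinin, Cpr49Ae, Lsp2 and Obp99b. Retinin, a protein of the corneal lens encoded by retinin (3L, 16331933 to 16332789), had 124, 147 and 152 CPM at 3d and 26.1, 22.6 and 21.1 CPM at 20d (log2 fold change -2.60 ± 0.18, adjusted p = 1.93e-05). The cuticle protein gene Cpr49Ae (2R, 12402216 to 12405108) had 37.2, 44.6 and 47.0 CPM at 3d and 10.1, 10.04 and 10.9 CPM at 20d (log2 fold change -2.05 ± 0.12, adjusted p = 8.61e-07), and 11 of 31 cuticle protein genes were lower and 4 higher (5 lower with at least 10 counts in every library). The larval serum proteins Lsp2 and Lsp1beta, stores laid down by the larval fat body, had 754, 1033 and 1119 CPM at 3d and 278, 224 and 239.8 CPM at 20d for Lsp2 (log2 fold change -1.97 ± 0.24, adjusted p = 0.000492) and a log2 fold change of -1.29 for Lsp1beta. Other fat body markers rose, namely Lsp1alpha, with 32, 4 and 17 counts at 3d and 1000, 750 and 623 counts at 20d (log2 fold change 5.50), and the yolk protein gene Yp1 (1.87), both named after their values were seen, and over the 8 markers tested the median was 0.21. Obp99b, an odorant-binding protein (3R, 29716254 to 29716896), had 188, 268 and 187 CPM at 3d and 47.0, 55.4 and 46.3 CPM at 20d (log2 fold change -2.11 ± 0.35, adjusted p = 0.00394). In Lsp2 and Lsp1beta every 20d library was below every 3d library, as in 25.8% of all genes tested. The same held for retinin, Cpr49Ae and Obp99b, which were picked among genes whose ages did not overlap. Among the photoreceptor markers 7 were lower, namely chp, inaC, inaD, ninaC, norpA, trp and trpl, and 3 were higher, namely the rhodopsin genes ninaE, Rh4 and Rh6. In set 1 edgeR called 0 of the 14, with 4 at an unadjusted p under 0.05, and DESeq2 called 3 lower.

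Uncharacterised genes were among the largest changes. CG12256 (3R, 12225282 to 12226339) had 20.4, 15.4 and 13.7 CPM at 3d and 203, 202 and 145 CPM at 20d (log2 fold change 3.47 ± 0.20, adjusted p = 1.15e-05) and rose in set 1 by 2.51. CG5966 (X, 5988791 to 5992640) had 13.2, 14.8 and 17.4 CPM at 3d and 121, 125 and 91.0 CPM at 20d (log2 fold change 2.90 ± 0.29, adjusted p = 0.000333), and CG34227 had 12.8, 4.48 and 3.15 CPM at 3d and 59.7, 39.9 and 47.7 CPM at 20d (log2 fold change 2.83 ± 0.50, adjusted p = 0.00522). In set 1 CG34227 rose by 2.01, whereas CG5966 changed by 0.91 (adjusted p = 0.236) and the difference between the sets was not called for it (adjusted p = 0.0663). These genes were picked among those whose ages did not overlap. A known gene with a rise of this size was a10, which encodes a small chemosensory protein of the antenna (3L, 17023123 to 17023741), with 15.4, 1.76 and 2.18 CPM at 3d and 102, 88.3 and 104 CPM at 20d (log2 fold change 3.88 ± 0.75, adjusted p = 0.00801) and a change of 3.84 in set 1. Replicate 1 was the highest of its 3d libraries. CG4000 (3R, 20676224 to 20677351) fell from 11.5, 36.0 and 29.4 CPM at 3d to 1.49, 1.84 and 1.68 CPM at 20d (log2 fold change -3.94 ± 0.44, adjusted p = 0.00042), and CG7203 (2L, 7752170 to 7753186) fell from 9.49, 38.7 and 35.2 CPM at 3d to 3.14, 2.33 and 1.72 CPM at 20d (log2 fold change -3.55 ± 0.60, adjusted p = 0.00413). The 3d replicate 1 was the lowest 3d library for both. CG42326, CG13067 and CG13360 fell by 2.26, 2.24 and 2.13 on the log2 scale, and all 5 also fell in set 1.

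A few genes were counted at one age and nearly absent at the other. They had at most 3 counts in every library of one age and at least 20 in every library of the other. They were picked by this split in set 2, so their adjusted p adds no further support. CG17560 had 0, 0 and 2 counts at 3d and 36, 50 and 84 counts at 20d (adjusted p = 2.15e-05), and in set 1 it had 1, 0 and 0 counts at 3d and 34, 28 and 23 counts at 20d. TotB had 2, 0 and 3 counts at 3d and 21, 51 and 26 counts at 20d (adjusted p = 0.000543). CG7214 went the other way, with 64, 631 and 658 counts at 3d and 1, 0 and 0 counts at 20d (adjusted p = 0.00456), and CG34462 had 20, 26 and 36 counts at 3d and 1, 2 and 3 counts at 20d (adjusted p = 0.00111). CG16826 was counted in all 20d libraries but mostly in one, with 34, 44 and 8829 counts against 0, 3 and 0 counts at 3d, and its change did not pass the test (adjusted p = 0.0518).

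Among genes of detoxification, metals and lipids, more were higher than lower. Of 71 cytochrome P450 genes 37 were higher and 8 lower (5 lower without 20d replicate 2), against 10 higher and 6 lower of 66 in set 1. Cyp6g1, known for insecticide resistance (2R, 12185667 to 12188431), had 14.98, 18.5 and 23.1 CPM at 3d and 66.3, 45.9 and 47.6 CPM at 20d (adjusted p = 0.00107), Cyp313a1 had 1.47, and Cyp4ae1 fell from 15.2, 15.6 and 14.96 CPM at 3d to 3.64, 4.28 and 4.44 CPM at 20d (log2 fold change -1.88 ± 0.13, adjusted p = 1.69e-06). The ages did not overlap for any of these, as for 51.5% of all genes tested. Of 31 glutathione S-transferases 13 were higher and 3 lower, against 1 higher and 4 lower of 30 in set 1, with GstD2 at 1.40 and GstE9 at 1.03. Of 16 genes of metal storage and transport 7 were higher and none lower, against 2 higher and 1 lower of 15 in set 1. The iron carrier transferrin, Tsf1 (X, 18387084 to 18390344), had 2185, 1946 and 1947 CPM at 3d and 3977, 3145 and 3230.0 CPM at 20d (log2 fold change 0.77 ± 0.11, adjusted p = 0.000194), and the metallothionein MtnA had 1906, 1885 and 1633 CPM at 3d and 2851, 2600.0 and 2766 CPM at 20d (log2 fold change 0.60 ± 0.12, adjusted p = 0.00225). Of 20 lipid genes 9 were higher and 1 lower, against 4 higher and 1 lower in set 1, with the triglyceride lipase bmm at 1.02 and the triglyceride transfer protein Mtp at 0.75. Of 18 digestive and sugar enzymes 5 were higher and 1 lower. Those that rose included the maltase Mal-B2 (1.64), the amylase Amy-p (1.51) and the trehalase Treh (0.79), whereas tobi, a glucosidase gene named as a target of brain insulin, had -1.45.

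At the miR-34 locus the noncoding RNA lncRNA:CR43459, whose annotated exons contain the mir-277 and mir-34 hairpins (3R, 10093761 to 10101356), had 5.59, 6.75 and 6.79 CPM at 3d and 17.7, 14.3 and 15.2 CPM at 20d (log2 fold change 1.31 ± 0.10, adjusted p = 3.85e-06). The nearby lncRNA:CR45054 (3R, 10083381 to 10090525) had 1.03, 1.67 and 1.73 CPM at 3d and 12.9, 13.01 and 9.63 CPM at 20d (log2 fold change 3.01 ± 0.20, adjusted p = 1.88e-06). Both rose in every 20d library and in set 1, by 0.89 and 2.07. PolyA-selected counts on these genes do not measure the mature miRNA. Of 378 long noncoding RNA genes 68 were higher and 43 lower, among them lncRNA:CR43700, which had 2.49, 3.13 and 3.76 CPM at 3d and 17.2, 16.6 and 17.2 CPM at 20d (log2 fold change 2.45 ± 0.18, adjusted p = 3.85e-06). Of 181 antisense RNA genes 23 were higher and 22 lower, with asRNA:CR45209 at -2.04. The dosage compensation RNA lncRNA:roX2 had 167, 128 and 133 CPM at 3d and 95.7, 81.7 and 82.98 CPM at 20d (log2 fold change -0.72 ± 0.11, adjusted p = 0.000696), and it also fell in set 1, by 0.98 on the log2 scale.

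Of a further 8 genes, 6 did not pass the test. The study's text names Pcl, Su(z)12, Utx and Lst8 among them, but not Eip74EF, hts, Nrx-IV and dlg1. Pcl, a partner of the Polycomb repressive complex PRC2 and a miR-34 target in the study (2R, 18135426 to 18139990), had 35.1, 36.1 and 34.2 CPM at 3d and 34.7, 34.8 and 34.3 CPM at 20d (log2 fold change -0.02 ± 0.06, adjusted p = 0.789). Su(z)12, a core subunit of PRC2, had 37.5, 45.0 and 42.9 CPM at 3d and 40.9, 41.8 and 44.1 CPM at 20d (log2 fold change 0.02 ± 0.08, adjusted p = 0.884). The 3d and 20d libraries overlapped for both, and the demethylase Utx, which removes the mark set by PRC2, had -0.08 (adjusted p = 0.412). The ecdysone-induced factor Eip74EF had -0.17 (adjusted p = 0.134), hts -0.18 (adjusted p = 0.0676) and Nrx-IV -0.22 (adjusted p = 0.0617). A fall was called for dlg1, a synaptic scaffold, at -0.28 (adjusted p = 0.00326), and a rise for Lst8, a TOR complex subunit, at 0.36 (adjusted p = 0.0114). In set 1 Lst8 changed by 0.07 and was not called (adjusted p = 0.604). The difference between the sets was not called for Lst8 either (adjusted p = 0.207). Of 18 genes of PRC2 and H3K27 demethylation 2 were higher and 2 lower.

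The strand setting of the counting is not given in the sources used here, so counts on overlapping exons are uncertain. The rule chose 255 genes, and 130 of them are named here. Of these 130, 33 share annotated exon sequence with a gene on the opposite strand, among them AttC, CCT5, ND-19, RpL31, ERp60, Gp93, Grd, Syt1, Hk, NaCP60E, GstE9, Treh, tobi, mRpS9, CG12256, CG4000 and CG7203, and 6 overlap a feature on the same strand. Positions are those of the Ensembl annotation of the fly genome (build BDGP6).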

How the data were processed

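The authors dissected brains of male control flies, 20 per replicate with 3 biological replicates per age, extracted RNA with Trizol and made stranded polyA-selected libraries. They aligned the reads with HISAT2 at default settings and counted reads per gene with HTSeq. Their methods name different FlyBase releases for genome and annotation, and the labels and methods differ on the rearing temperature. The authors deposited 1 table of raw counts for 17612 genes and 21 libraries, with no normalization or filter, and column names gave the library of each column.

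TMM factors came from edgeR 4.0.16 under R 4.3.3, which then ran a robust quasi-likelihood fit and test on the 9 libraries of set 2, contrast 20d minus 3d, over the genes kept by filterByExpr (minimum count 10). The 50d libraries shared the estimate of the spread. Genes were called at an adjusted p (Benjamini-Hochberg, over all genes tested) under 0.05. Errors are approximate standard errors, the size of the log2 fold change divided by the square root of its F statistic in this fit. Set 1 was fitted alone over its 12 libraries, and the set by age interaction over the 12 control libraries. Replicate numbers are shared labels of separate pools, so no block was used. A group of 3 against 3 allows no exact permutation p below 0.1. In simulated counts with 100 genes changed per fold size, the set 2 test recovered 52% of 1.5-fold and 90% of 2-fold changes, and the interaction test 10% and 63%. Of the simulated calls, 7.19% and 1.35% fell on unchanged genes. The simulation gave every gene the same spread, unlike the data, so these shares do not hold for genes with more or less spread. It also changed far fewer genes than the 4127 called in the data, so its adjusted p cut-off was stricter. Folds below 1.5 were not simulated.

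Alternatives were DESeq2 1.42.0, RLE factors, total counts, other filters and thresholds, removal of the mitochondrial genome, a replicate block, only the libraries compared, a length offset and each library left out in turn. Genes were named by rule. It took the 10 largest rises and falls among calls whose mean log2 CPM reached 2 and whose ages did not overlap. It also took up to 4 called members per gene list at that level. Up to 5 genes were taken each way that had no more than 3 counts in any library at one age. These had 20 or more counts in each library of the other age. The 3 largest changes of uncharacterised genes each way were taken too. The rule also held 8 further genes, only some of which the study's text names. Members and lists were chosen with earlier results of these data known. The lists were written from gene symbols, and names absent from the table were left out.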

Additional observations from a re-analysis of the deposited data

Results flagged for a closer look

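The rule chose 255 genes, and 130 of them are named in the text. Of these 130, 33 had an age change that differed between set 2 and set 1 by the interaction test (adjusted p from 0.0303 to 0.0495). The change was more negative in set 2 for 19 of the 33 and more positive for 14. Over all 255 the test was passed by 50, against 455 of 10221 genes tested (4.45%). Most of these genes were chosen for large changes in set 2, a choice that favours a larger change there than in set 1. Each of the 33 differences had the sign of the set 2 change. The values in brackets are log2 differences, set 2 minus set 1. The positive differences of the Turandot genes were the widest: TotA (3.07), TotC (3.39), TotX (1.61) and TotB (3.98). TotB did not pass the count filter of set 1 and was nearly absent at 3d in set 2, so the size of its difference is uncertain. Smaller positive differences were found for ribosomal proteins, proteasome subunits and enzymes of protein folding: RpL31 (0.61), RpL27A (0.55), RpL37A (0.59), Prosalpha3 (0.51), Rpn6 (0.31), Pdi (0.47) and ERp60 (0.41). The others above 0 were CrebA (0.60), MtnA (0.69) and Mtp (0.68). Differences below 0 were found in genes of vesicle release and excitability, Syt1 (-0.50), Syngr (-0.39), comt (-0.40), Sh (-0.51), Hk (-0.39), Shal (-0.46), NaCP60E (-0.61), stj (-0.45), nAChRbeta1 (-0.65), nAChRalpha7 (-0.51), GluClalpha (-0.50) and beat-Va (-0.48). The matrix genes Col4a1, trol and vkg, the glial transporter gene Gat and the lens gene retinin also fell more in set 2, Col4a1 (-0.72), trol (-0.59), vkg (-0.55), Gat (-0.51) and retinin (-0.97), as did Vha68-1 (-0.40) and muc (-0.30). The interaction count over all genes went to 0 without any one of 6 of the 12 libraries, so these calls rest on those libraries, and the cohort, sequencing run and depth of a set cannot be told apart. Outliers within an age were not tested, since each age had 3 libraries.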

How the results depend on the processing

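The count of called genes in set 2, 4127, lay between 3201 and 4169 when single libraries of set 2 were left out (1673 to 2022 higher and 1528 to 2147 lower), and between 3829 and 4482 under the other filters, scalings, tools and fits. It was 2664 at an adjusted p under 0.01 (1249 higher), 1426 for changes of at least 1.5-fold (863 higher and 563 lower), and 3080 genes were higher with total counts alone. The set 1 count, 2451, went from 1548 to 2523 with single libraries left out (651 to 1204 higher and 883 to 1319 lower), and 743 genes were higher when only the 6 control libraries of set 1 were fitted. The interaction count, 455, was 1090 with DESeq2 (376 higher and 714 lower) and 271 with the length offset (87 and 184), and single libraries left out gave 0 to 1214 genes (0 to 513 higher and 0 to 701 lower). Genes called in the same direction in both sets numbered 763 at an adjusted p under 0.01 and 395 at 1.5-fold in place of 1493. The replicate numbers did not pair the set 2 libraries: the deviations of same-numbered 3d and 20d libraries correlated across genes at -0.066, -0.013 and -0.068. No set 2 library of these ages correlated best with its own number. With the replicate block 4461 genes were called in set 2, and the interaction had 201 lower genes in place of 311. Among the genes named by the rule the sign changed only for genes that were not called. Pcl was 0.08361 with total counts alone, 0.03304 with the length offset and 0.007679 without 3d replicate 2. Su(z)12 was -0.03775 without 3d replicate 1 and -0.01401 without 20d replicate 3, and Utx was 0.02807 with total counts alone. Over all single libraries left out, Pcl ranged from -0.02478 to 0.007679 and Su(z)12 from -0.03775 to 0.08268. The cause was not tested for any of these shifts beyond the changed threshold or number of libraries. Changes under 1.5-fold were called too, and the share of them that was missed was not tested. With 3 libraries per age, genes with few counts can be called only at large folds.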
